A study of Mus musculus with 8 samples.

Results

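The expressed Zfp zinc finger genes of mouse Paneth cells (PCs) were examined. Members were selected by name and by abundance. A member was a protein-coding gene whose symbol is Zfp followed by digits only and which had at least 500 raw counts summed over all 8 libraries. Of the 383 such Zfp genes in the count table, 109 were members, among 55414 genes in all. The other 274 Zfp genes were below the limit, and 49 of them had 0 counts in every library. The members just inside the limit were Zfp111 with 505 counts, Zfp516 with 503 and Zfp386 with 500. Those just outside were Zfp317 with 498 counts, Zfp276 with 497 and Zfp53 with 493. Members passing the expression filter of the test numbered 109 of 109.

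PCs are the granule-filled secretory cells at the base of the small intestinal crypts, and they store zinc in their granules. They were sorted by flow cytometry from the small intestine, 1 library per mouse. A group of 4 mice drank Milli-Q water, and a group of 4 mice drank water with 25 mM ZnSO4, in both cases for 7 days. Both groups, the water group included, then received tumor necrosis factor (TNF) and were sampled after 3 hours, so that no mouse without TNF enters the comparison.

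A zinc finger is a small protein fold held together by a zinc ion that is bound by cysteine and histidine side chains. In the C2H2 type, tandem fingers usually read DNA, and many such proteins also carry a KRAB domain, which recruits the co-repressor Trim28 and, through it, the histone methyltransferase Setdb1. KRAB zinc finger genes sit in tandem arrays in the genome and are known for silencing transposable elements. The Zfp name also covers CCCH proteins, whose fingers bind RNA. The best known of these is Zfp36 (tristetraprolin), which marks AU-rich messenger RNAs such as that of TNF for decay and is itself induced by TNF.

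The coding bases of 1 finger of each of 3 members are given to show what the shared name means, with the codons of the zinc-binding cysteines and histidines in capitals. They were read 5′ to 3′ on the coding strand of GRCm39 (the minus strand for all of them). The stretch of Zfp777 lies at chr6:48002352-48002414, that of Zfp954 at chr7:7118883-7118945 and that of Zfp36 at chr7:28077583-28077642, each inside 1 coding exon.
Zfp777, C2H2: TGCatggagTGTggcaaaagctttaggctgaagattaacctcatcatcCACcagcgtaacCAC
Zfp954, C2H2: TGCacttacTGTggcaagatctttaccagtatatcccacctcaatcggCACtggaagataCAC
Zfp36, CCCH: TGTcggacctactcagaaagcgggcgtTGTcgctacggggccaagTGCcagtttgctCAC
The C2H2 pair share the spacing of the capitals, with 63 bases in each, whereas the finger of Zfp36 has 3 cysteines before a single histidine in 60 bases.

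The members were a mixed set by architecture. In the translated canonical transcript, 105 of the 109 held at least 1 C2H2 match, with a median of 9 matches. Zfp142 held the most, 36 matches, followed by Zfp462 with 33. The 4 members without a match were Zfp36, Zfp330, Zfp503 and Zfp703. Zfp503 and Zfp703 are related transcriptional co-repressors with an atypical finger. A KRAB A box was matched in 32 of the 109 members (29.4%), against 178 of the 274 Zfp genes below the limit (65.0%). KRAB genes and members are named here by this match, made on letters of the canonical translation only. Genes with a match were thus the smaller class among the expressed Zfp genes and the larger class among the others. Sequence shared between paralogs moved with this split. More than 10% of the 75-base words of the transcript also occurred in other genes for 3 of the 32 KRAB members (9.38%) and for 50 of the 178 KRAB genes below the limit (28.1%). Reads from such stretches may not be counted, and the part of this in the split was not tested.

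By its mean over the libraries, the most abundant RNA of the family per length was that of Zfp36. It was the highest member in 7 of 8 libraries and ranked 4 in zinc library 3, where Zfp703 was the highest. Levels are compared between genes only as counts per kilobase of the canonical transcript, scaled to the library total as TPM values are (written here as ppm). On that scale Zfp36 had 66.1 ± 35.6 ppm (SD, n = 8 libraries). Next came Zfp703 with 21.8 ± 5.14 ppm and Zfp598, a ubiquitin ligase that senses collided ribosomes, with 19.8 ± 5.20 ppm. Zfp106, an RNA-binding protein, had 13.3 ± 3.30 ppm, and Zfp664 had 11.2 ± 2.61 ppm. Zfp330 had 9.93 ± 1.94 ppm, Zfp706 7.75 ± 1.33 ppm and Zfp384, a DNA-binding transcription factor, 6.90 ± 1.98 ppm. Zfp110, the highest KRAB member, had 6.77 ± 1.53 ppm, and Zfp622, a factor of 60S ribosome maturation, had 6.71 ± 1.22 ppm. Apart from Zfp36 at the top, neighbours in this order differed by less than their SD, except for the steps from Zfp598 to Zfp106 and from Zfp330 to Zfp706. The level of Zfp330 is uncertain, since 23.2% of its words are shared with other genes.

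Of the 10 highest, Zfp36, Zfp598, Zfp106 and Zfp622 act on RNA or ribosomes rather than on DNA. The same 10 members held 31.0% to 52.4% of the summed member level in a library, lowest in zinc library 3. Most members were far lower: 85 of 109 were above 1 ppm, 12 above 5 ppm and 2 above 20 ppm. The median was 1.61 ppm, against 2.89 ppm over all genes tested. KRAB members had a median of 1.41 ppm and the other members of 1.84 ppm. Zfp777 ranked 47 with 2.16 ± 1.02 ppm and Zfp954 ranked 51 with 1.73 ± 0.446 ppm, so both lay near the middle of the family. At the low end, Zfp462 had 0.372 ± 0.188 ppm.

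**Figure D1:**
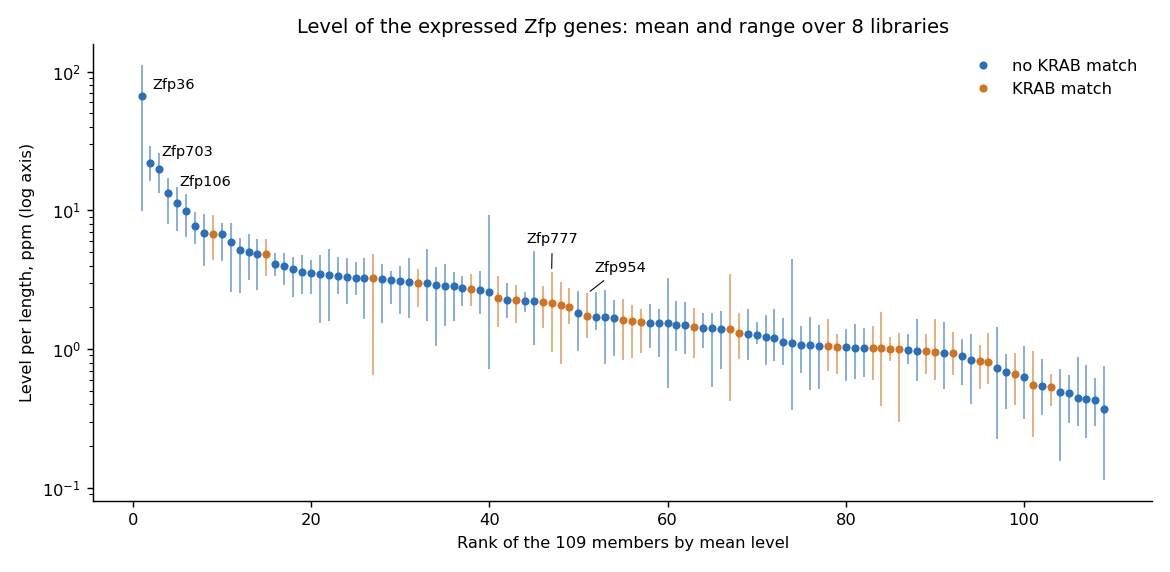
Level per length (ppm, log axis) of each of the 109 members, ordered by mean. Points are means and lines the range over 8 libraries, with KRAB members in orange. Zfp36 stands at 66.1 ppm, 2 members lie above 20 ppm and Zfp777 and Zfp954 are near the middle.

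The members were unevenly spread over the genome. Chromosome 7 carried 29 members out of 91 Zfp genes. Chromosomes 6 and 8 carried 10 members each, out of 17 and 26 Zfp genes. Chromosome 13 carried 36 Zfp genes, of which 2 were members (5.56%), and chromosome 17 carried 41, of which 6 were members (14.6%). On chromosome 10 none of 4 Zfp genes was a member. The highest share was on chromosome 16, with 4 of 5. Chromosome 17 and chromosome 13 are sites of large KRAB gene arrays, and 36 and 22 of their Zfp genes had a KRAB match.

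**Figure D2:**
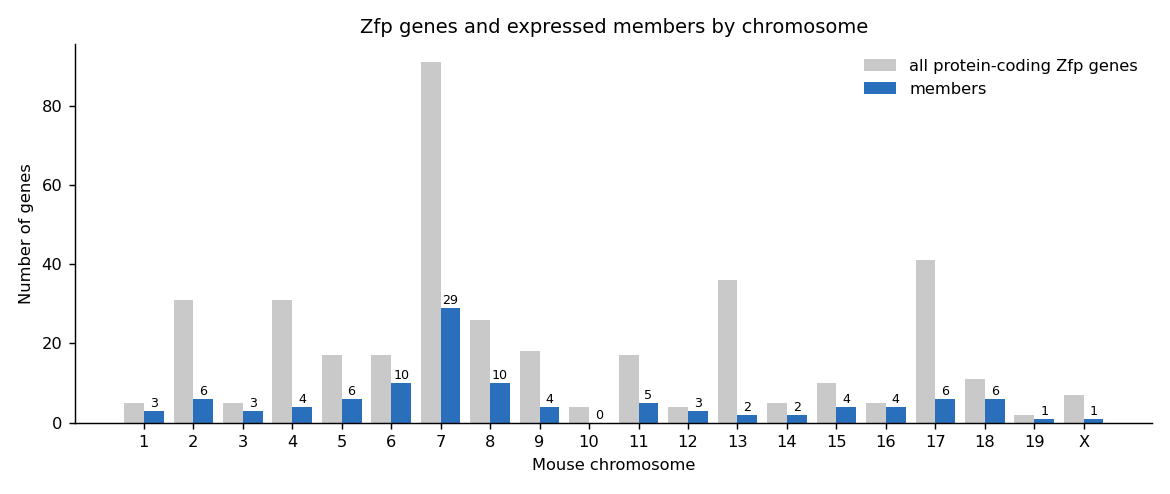
Number of protein-coding Zfp genes (grey) and of expressed members (blue, number above the bar) on each mouse chromosome. Chromosome 7 holds 29 of the 109 members, whereas 2 of 36 Zfp genes on chromosome 13 are members.

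Members were grouped in a cluster where at least 3 lay on 1 chromosome with at most 1 Mb from each start to the next. This gave 8 clusters with 30 members, of which 4 clusters lay on chromosome 7. The cluster with Zfp777 spans 210 kb at chr6:47854138-48063679 and holds Zfp282, Zfp212, Zfp777 and Zfp746, all 4 with a KRAB match. Among them, Zfp746 (PARIS) is known as a repressor of the mitochondrial regulator PGC-1α. The cluster with Zfp954 spans 990.01 kb at chr7:6134486-7124498 and holds Zfp787, Zfp667 and Zfp954. The clusters with the most members, 5 each, were chr7:29467960-29869215 (Zfp84, Zfp790, Zfp568, Zfp260 and Zfp146) and chr7:126832057-127485430 (Zfp553, Zfp768, Zfp747, Zfp629 and Zfp646). Members included, the former stretch holds 15 Zfp genes and the latter 10, so many genes of these arrays were below the limit.

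The libraries held 10623658 to 15101627 counts, and a count of 0 allowed up to 0.179 to 0.369 CPM (reads of a gene relative to the size of its library, adjusted by TMM factors), which covers counting error only. Paneth cell markers were high in every library, with 8 listed genes summing to 392865 to 739923 CPM, and immune and stromal markers summed to 13.5 to 27.5 CPM, 3 of 9 being at 0 in all libraries. Goblet cell markers summed to 3799 to 6071 CPM with water and to 9815, 7427, 5855 and 10399 CPM in zinc libraries 1 to 4, and their part in the differences below was not tested. Zinc library 3 stood apart from the rest. Its correlation with any other library was at most 0.903, and its 10 TNF response genes summed to 73.1 CPM, against 1090 to 1145 CPM in the other zinc libraries and 1186 to 1322 CPM with water. Enterocyte markers summed to 476.5 CPM there, against 78.9 to 146 CPM in the other 7 libraries. The zinc response genes Mt1, Mt2 and Slc30a1 summed to 431 and 159.5 CPM in zinc libraries 1 and 2, but to 39.9 and 49.5 CPM in zinc libraries 3 and 4, within or just below the 40.0 to 91.6 CPM with water. Water libraries 3 and 4 had lower values for longer transcripts (Spearman's rho across genes −0.334 and −0.341, against 0.000523 to 0.254 in the other libraries), and members had long transcripts, with a median of 4639 bases against 3450 over all genes tested.

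Whether zinc changed the Zfp genes of TNF-treated PCs was asked by comparing the groups with the quasi-likelihood test of edgeR over 10707 genes. In bulk samples a difference in the number of cells of a type and one in RNA per cell cannot be told apart. No gene was called at an adjusted p under 0.05 (0 genes, 0.0%), and the smallest adjusted p of any gene was 0.485, with 1092 genes under an unadjusted p of 0.05. DESeq2 called 4 genes, none of them a member. At an unadjusted p under 0.05, 11 of 109 members (10.1%) were higher with zinc, against a background of 6.42% of all genes tested. In the same way 6 members (5.50%) were lower, against 3.78%. Without Zfp777 and Zfp954, which were chosen for their difference, the counts were 10 and 5 of 107 (9.35% and 4.67%). In log2 fold change (zinc over water) 51 members were above 0 and 58 below, with a median of −0.03 against 0.01 over all genes tested. Both unadjusted shares were thus somewhat above the background, which also holds genes of lower count than the members. With an offset for transcript length and GC content, 7 members were higher (background 5.30%) and 8 lower (background 3.22%). The part of abundance in these shares was not tested.

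Groups did not overlap in 4 members higher with zinc (3.67%, background 2.76%), namely Zfp777, Zfp667, Zfp704 and Zfp687. The same held for 8 members lower with zinc (7.34%, background 3.12%), namely Zfp954, Zfp143, Zfp639, Zfp410, Zfp131, Zfp511, Zfp513 and Zfp830. Without the 2 cases the counts were 3 (2.80%) and 7 (6.54%) of 107. Zinc library 3 was the lowest of all 8 libraries in 36 members (33.03%, against 29.97% of genes tested) and the highest in 23 (21.1%, against 29.8%). Without it, 5 members were higher and 6 lower without overlap, where the background was 4.04% and 3.77%. Without water libraries 3 and 4 the counts were 9 and 16 of 109, where the background over all genes also went up, to 7.79% and 8.84%.

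**Figure D3:**
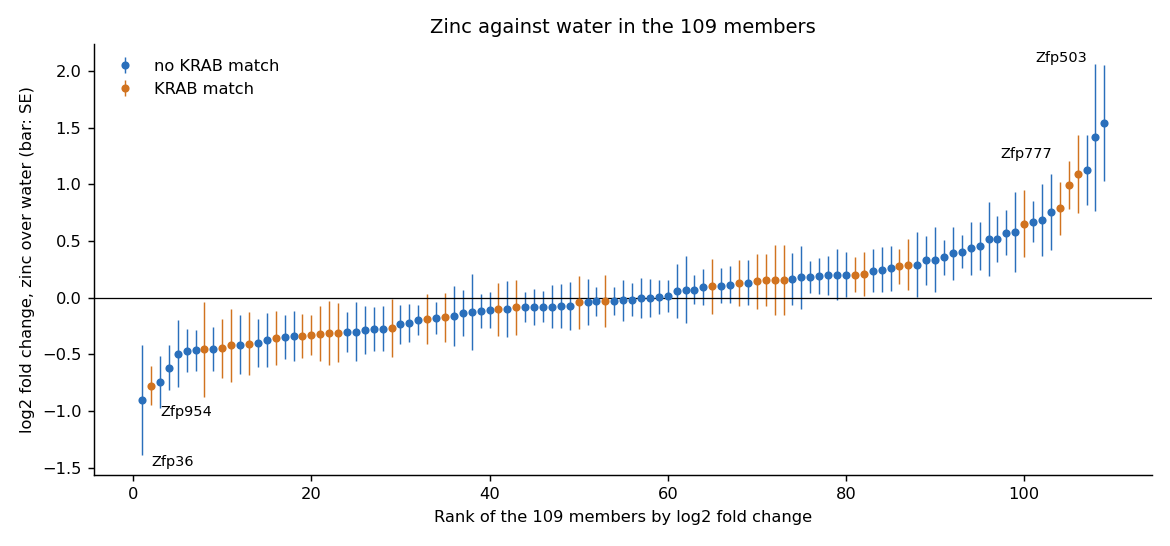
Log2 fold changes (zinc over water) for all 109 members in order of size, with SE bars from edgeR and KRAB members in orange. The values run from −0.91 (Zfp36) to 1.54 (Zfp503), and their median is −0.03.

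Zfp777 was the case with a higher level after zinc. It is a KRAB gene on the minus strand of chromosome 6 (chr6:48001122-48025845), with 6 exons in its canonical transcript, 885 encoded residues and 9 C2H2 matches. In the water libraries 1 to 4 it had 6.36, 7.80, 6.77 and 5.52 CPM. In the zinc libraries 1 to 4 it had 15.6, 11.4, 16.2 and 9.52 CPM. Each zinc library was thus above each water library, zinc libraries 1 and 3 being the highest. The group means were 6.61 ± 0.949 CPM for water and 13.2 ± 3.26 CPM for zinc (SD, 4 mice per group). On the log2 scale the zinc group was higher by 0.99 ± 0.21 (SE). Without zinc library 3 the log2 fold change was 0.88, and leaving out any single library gave 0.88 to 1.12. None of its words was shared with another gene. A gene on the same strand, Gm45738, overlaps it but had 6 counts over all libraries, against 1023 for Zfp777.

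Zfp954 was the case with a lower level after zinc. It is a KRAB gene on the minus strand of chromosome 7 (chr7:7115123-7124498), with 5 exons, 416 encoded residues and 8 C2H2 matches. It had 13.0, 9.83, 14.5 and 14.6 CPM in the water libraries 1 to 4. It had 7.59, 7.60, 6.74 and 8.31 CPM in the zinc libraries 1 to 4. The zinc libraries lay close together and all below the lowest water library, which was water library 2. The group means were 13.0 ± 2.24 CPM for water and 7.56 ± 0.642 CPM for zinc (SD, 4 mice per group), and the log2 fold change was −0.78 ± 0.17 (SE). Leaving out single libraries gave −0.90 to −0.71, and leaving out water libraries 3 and 4 together gave −0.60. Both cases were picked for these values, so no test is attached to either.

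**Figure D4:**
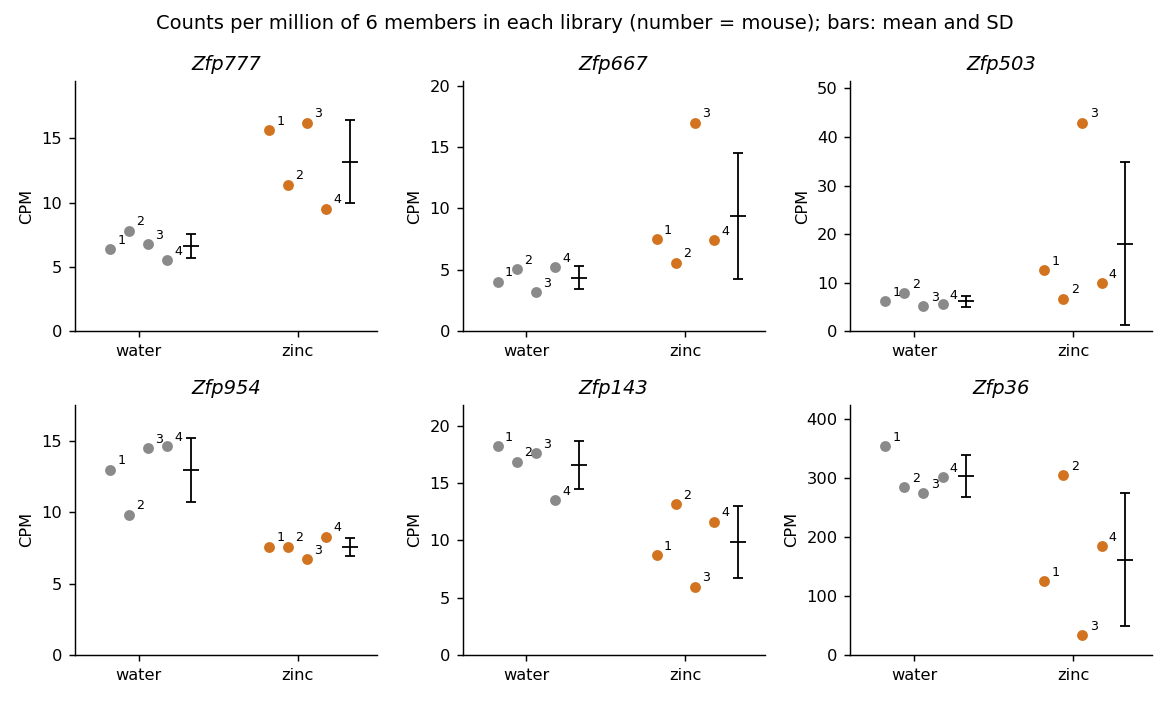
CPM of 6 members in each library (points, numbered by mouse) with mean and SD beside them; every vertical axis starts at 0. Groups do not overlap for Zfp777, Zfp667, Zfp954 and Zfp143, while zinc library 3 is the highest for Zfp503 and the lowest for Zfp36.

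The 250 bases before the annotated start were searched in all genes for the metal response element core (TGCACNC or TGCGCNC on either strand), the letters bound by the zinc sensor Mtf1. It occurred in 23 of 109 members (21.1%) and in 23.9% of protein-coding genes tested. Neither Zfp777 nor Zfp954 had a match in this window. CpG dinucleotides numbered 12 before Zfp777 and 8 before Zfp954, and the median was 10 both in members and in the protein-coding genes tested.

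Within the chromosome 6 cluster the neighbours of Zfp777 were less different between groups. Zfp282 had a log2 fold change of 0.65 ± 0.30 (SE), Zfp746 of 0.27 ± 0.15 and Zfp212 of −0.09 ± 0.25. Zfp282 had 3.42, 4.94, 5.42 and 2.72 CPM with water and 5.997, 6.67, 8.98 and 4.11 CPM with zinc, so its groups overlapped. Of 17 other tested genes starting within 1 Mb of Zfp777, 13 were higher with zinc and 4 lower, and 2 of them, Zfp398 and Lrrc61, were higher with an unadjusted p under 0.05, against 6.42% of all genes. Of these, Lrrc61 had 1.03 to 1.36 CPM with water and 2.34 to 3.79 CPM with zinc. It was named after its values were seen.

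The cluster of Zfp954 held members of both signs, but it depended on the gap allowed. Zfp667 starts at chr7:6289154 and Zfp954 at chr7:7115123, so a largest gap of 0.5 Mb leaves Zfp954 in no cluster. Zfp667, a KRAB gene, had 4.03, 5.06, 3.20 and 5.20 CPM with water and 7.50, 5.59, 17.0 and 7.42 CPM with zinc. Its groups did not overlap, but zinc library 3 was far above the others. Its log2 fold change was 1.09 ± 0.34 (SE, adjusted p = 0.485, edgeR) and 0.63 without zinc library 3. Zfp787, which has no KRAB match, had a log2 fold change of 0.35 ± 0.16. So 1 member of this cluster was lower and 2 were higher, with the direction of the 2 unlike that of Zfp954. Within 1 Mb of Zfp954, 5 other genes were tested and all 5 were higher with zinc. Of these, Zfp667 and Zfp787 had an unadjusted p under 0.05, against 6.42% of all genes. Without zinc library 3, 1 of the 2 was higher at that threshold (background 4.34%).

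Among the other clusters, Zfp629 had the highest value. In the chr7:126832057-127485430 cluster, Zfp629 had 3.35, 3.81, 2.46 and 3.36 CPM with water and 8.43, 6.10, 10.2 and 3.79 CPM with zinc. Zinc library 4 overlapped the water libraries there, and the log2 fold change was 1.12 ± 0.31 (SE, adjusted p = 0.485, edgeR). The other 4 members of that cluster had log2 fold changes of −0.02 (Zfp646) to 0.45 (Zfp553). In the chr7:29467960-29869215 cluster, values ran from −0.32 (Zfp790) to 0.21 (Zfp84), with Zfp146 and Zfp260 at 0.00 and 0.01. The 3 members of the chromosome 18 cluster were all above 0, with a median of 0.33, and of 0.15 without zinc library 3. The 3 of the chromosome 17 cluster were all below 0, with a median of −0.19, but 1 of them was above 0 without water libraries 3 and 4 or with the length and GC offset. None of these 6 members had an unadjusted p under 0.05.

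**Figure D5:**
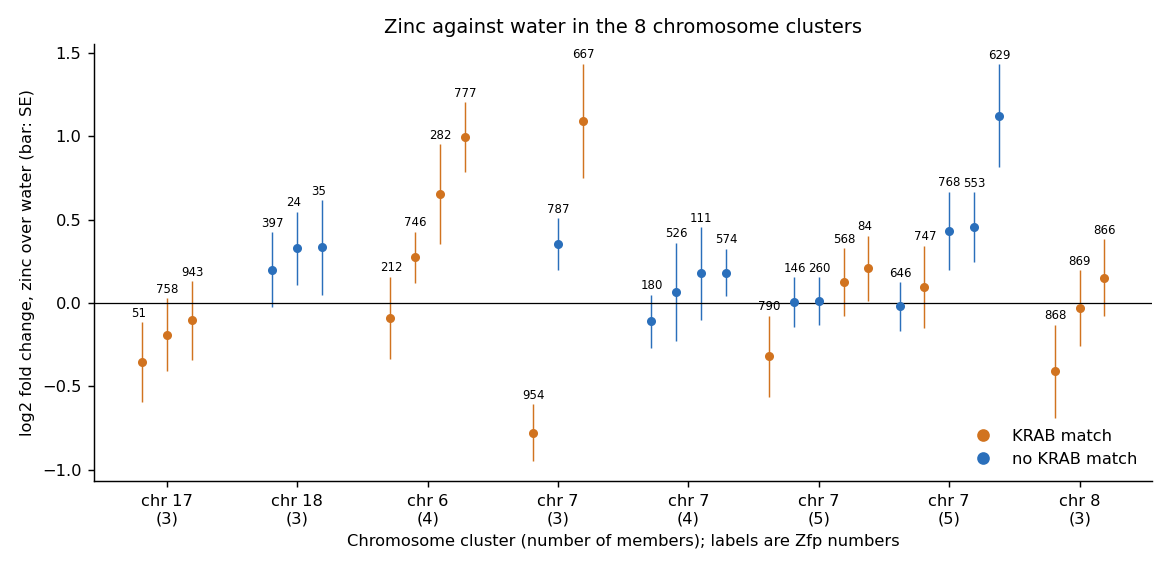
Log2 fold changes with SE (zinc over water) for members in each of the 8 chromosome clusters, named by Zfp number, with KRAB members in orange. Zfp777 is the highest of its cluster at 0.99, and Zfp954 at −0.78 lies on the other side of 0 from Zfp667 at 1.09.

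Zfp36 stood out among the RNA-binding members. It had 353, 283.5, 274 and 301 CPM with water. It had 125, 304, 33.4 and 184 CPM with zinc, so that 3 of 4 zinc libraries were below every water library and zinc library 2 was within their range. The log2 fold change was −0.91 ± 0.49 (SE, adjusted p = 0.503, edgeR), and it ran from −1.41 without zinc library 2 to −0.56 without zinc library 3. The lowest value fell in the library with the low TNF response genes. In zinc libraries 1, 2 and 4 these genes summed to 1145, 1090 and 1137 CPM, which was not the order of Zfp36. Their mean log2 level, in which each gene weighs the same, was 5.18, 5.36, 1.36 and 5.27 in zinc libraries 1 to 4. That was the order of Zfp36. In water libraries 1 to 4 it was 5.75, 5.53, 5.79 and 5.46, which was not. The part of the TNF response genes in the difference was not tested. Zfp36 also moved the family sum. The members together held 1957 to 2094 CPM with water and 1650 to 2058 CPM with zinc, and without Zfp36 the ranges were 1658 to 1741 CPM and 1616 to 1754 CPM.

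The other RNA and ribosome members of the list had smaller differences. Of 7 listed genes 6 were members, Zfp326 being below the limit with 311 counts. Zfp598 had a log2 fold change of −0.22 ± 0.17 (SE), and −0.086 without zinc library 3. Zfp207, a spindle assembly factor, was at −0.24 ± 0.17, and at −0.11 without that library. Zfp106 was at 0.00 ± 0.17. Zfp622 was at 0.07 ± 0.13 and Zfp638 at 0.11 ± 0.15. None of the 6 had an unadjusted p under 0.05, against 6.42% and 3.78% of all genes in the 2 directions. Without zinc library 3, 1 of them, Zfp36, was lower at that threshold (background 3.72%), and the list median went from −0.11 to 0.0022.

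Of the 10 broadly acting transcription factors of the second list, which was drawn up with results of these data known, 9 had a log2 fold change below 0. The median was −0.24, and −0.08 without zinc library 3. With an unadjusted p under 0.05, 3 were lower, against 3.78% of all genes. Zfp143, which binds promoters and chromatin loop anchors, had 18.2, 16.9, 17.6 and 13.5 CPM with water and 8.71, 13.1, 5.965 and 11.6 CPM with zinc. All zinc libraries were below all water libraries, the closest pair being water library 4 and zinc library 2. Its log2 fold change was −0.75 ± 0.23 (SE, adjusted p = 0.485, edgeR) and −0.56 without zinc library 3.

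Zfp410, an activator of the chromatin remodeller gene Chd4, had 13.6, 12.8, 20.8 and 15.7 CPM with water and 8.995, 12.8, 11.3 and 12.1 CPM with zinc, with the nearest values of the groups almost equal. Its log2 fold change was −0.47 ± 0.19 (SE), and −0.23 without water libraries 3 and 4. Chd4 itself was at 0.36 ± 0.17, with groups that overlapped, and a link between these values was not tested. Zfp131, a BTB-domain factor, had a log2 fold change of −0.47 ± 0.18, with 8.475 to 10.9 CPM against 5.75 to 8.23 CPM. Zfp217 at −0.30 ± 0.26 and Zfp384 at −0.28 ± 0.19 rested on zinc library 3. Zfp217, a co-repressor subunit, had 17.7 CPM there against 43.8 to 45.8 CPM in the other zinc libraries and 41.9 to 49.4 CPM with water. The remaining members were Zfp263 at −0.20, Zfp281 at −0.16, Zfp148 at −0.03, Zfp335 just below 0 and Zfp91 at 0.20, of which Zfp91 shares 35.5% of its words with other genes. Without zinc library 3 the list had 7 members below 0, and 2 were lower with an unadjusted p under 0.05, against 3.72% of all genes.

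Of the 6 genes listed for imprinting and retroelement silencing, 3 were members. Zfp445 and Zfp568, which act at imprinted genes, had log2 fold changes of 0.20 ± 0.15 and 0.13 ± 0.20 (SE). Zfp809, which recognises the primer binding site of murine leukaemia viruses, was at −0.04 ± 0.23. The imprinting factor Zfp57 had 83 counts over the 8 libraries and Zfp932 had 141, while Zfp708 had 0 counts.

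The remaining named members with a small unadjusted p were of mixed type. Zfp704, which has 1 C2H2 match, had 8.48, 8.81, 8.12 and 7.36 CPM with water and 11.99, 11.8, 17.4 and 10.9 CPM with zinc. Its groups did not overlap, and its log2 fold change was 0.67 ± 0.18 (SE, adjusted p = 0.485, edgeR), and 0.40 with the length and GC offset. Zfp871, a KRAB gene, was at 0.79 ± 0.24 with 7.995 to 12.9 CPM against 12.3 to 24.1 CPM, so that its groups overlapped. Zfp639 was the other lower member, at −0.62 ± 0.20, with 6.56 to 7.92 CPM against 3.56 to 5.81 CPM and no overlap.

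Some high values came from zinc library 3. Zfp503 had the highest log2 fold change of all members, 1.54 ± 0.51 (SE, adjusted p = 0.485, edgeR). It had 42.9 CPM in that library, against 6.67 to 12.6 CPM in the other zinc libraries and 5.17 to 7.80 CPM with water, and without that library the log2 fold change was 0.63. Zfp395, which was named after its values were seen, had 26.0 CPM there and 2.66 to 4.69 CPM in the other zinc libraries, and its log2 fold change went from 1.42 to 0.13 without it. The related Zfp703 showed no such value, with 71.2 CPM in zinc library 3 and 74.4 to 95.4 CPM in the other zinc libraries.

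By architecture, the median of log2 fold changes was −0.07 for the 32 KRAB members, and 0.04 with a length and GC offset. At an unadjusted p under 0.05, 3 KRAB members were higher and 1 lower. For the 77 other members the median was 0.00, with 8 higher and 5 lower. Over all genes tested the shares were 6.42% and 3.78%. By finger number, the 48 members with 3 to 9 C2H2 matches had 5 higher and 6 lower at that threshold, and 7 of them were lower without overlap. The 46 members with 10 or more matches had 4 higher and 0 lower, with 0 lower without overlap, and the 15 with 0 to 2 matches had 2 higher and 0 lower, with 1 lower without overlap. Over all genes tested, 3.12% were lower without overlap. The difference between these classes was not tested. Between water libraries the median coefficient of variation was 20.1% for KRAB members, 14.2% for the others and 17.2% over all genes tested.

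The partners of KRAB proteins were also measured. Of 32 listed co-repressor genes 31 were tested, Atf7ip2 having 0 counts. None was called, 21 had a log2 fold change above 0 and 10 below, and the median was 0.12. At an unadjusted p under 0.05, 7 were higher (background 6.42%) and 1, Morc3, was lower (background 3.78%). Trim28 had 46.7, 47.5, 45.7 and 42.4 CPM with water and 58.8, 62.0, 68.0 and 46.7 CPM with zinc. Its log2 fold change was 0.37 ± 0.14 (SE, adjusted p = 0.485, edgeR). Its zinc library 4 lay among the water values. Setdb1 was at −0.07 ± 0.18. The others among the 7 were Atrx at 0.68, Cbx5 at 0.49, and the DNA methylation genes Dnmt1 at 0.65, Uhrf1 at 1.23, Dnmt3a at 0.55 and Dnmt3b at 0.87, of which Dnmt1 and Uhrf1 are known to be high in dividing cells. Stem and crypt markers, a list that holds Mki67 and Top2a, together summed to 415 to 607 CPM with water. As a list they summed to 1074, 780, 996 and 493 CPM in zinc libraries 1 to 4, the last within the range with water. Their part in these values was not tested. The count of 7 was 3 with a length and GC offset (background 5.30%) and 4 without zinc library 2 (background 6.70%). It was 4 without water library 1 (background 4.88%), 3 without water library 4 (background 3.81%) and 7 without zinc library 3 (background 4.34%). Without water libraries 3 and 4 together it was 1, where the background also fell, to 1.69%.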

How the data were processed

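Each of the 8 libraries came from sorted PCs of 1 mouse, made with a stranded mRNA kit. The authors deposited raw counts per Ensembl gene. The submitters' processing notes name FastQC 0.12.0, STAR 2.7.10a, DESeq2 and mm39, while the counting program and its strand setting are not given in the sources used here. GENCODE M39 models (GRCm39) matched 54749 identifiers and left 665 with 0.00443% of counts. The members, lists and cases were chosen with earlier results of these data known.

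Groups were compared with edgeR 4.0.16 in R 4.3.3 (TMM factors, default filter, quasi-likelihood test, Benjamini-Hochberg adjustment, threshold 0.05, biological coefficient of variation 0.269). The alternatives were 17 refits, 1 of them with DESeq2 1.42.0, and other limits for the rule and the clusters. C2H2 matches were C-2 or 4-C-12-H-3 to 5-H, and KRAB was matched around the conserved tryptophan of its A box, both on letters only. No libraries agreed within sampling noise (smallest chi-square per degree of freedom 6.37 over 28 pairs). Scripts were tested on simulated data, 4 libraries against 4. There 37.8% of genes changed by a log2 of 1 were called, and 93.3% of those changed by 2. Of 126 called genes 6 were false. The absence of a call therefore does not exclude a log2 change of 1. By rule, the text names the 2 cases, the 10 highest members, the 5 of smallest p in each direction, members of 4 clusters and of the role lists, and extremes of counts and finger number. The labels give no batch.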

Additional observations from a re-analysis of the deposited data

Results flagged for a closer look

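In groups of 4 libraries, 1 library of a named member was far from the other 3 by Dixon's criterion in 9 cases among 96 groups searched, where chance alone gives about 1 in 20 groups. The named members were chosen partly by p and level, and over all members the tally was 12 of 218 groups (5.50%), against 6.52% over all genes tested. Zinc library 3 was the distant one in 5 of the 9 cases: Zfp217 with 17.7 CPM (the others 43.8 to 45.8), Zfp384 with 20.8 CPM (37.6 to 38.1), Zfp503 with 42.9 CPM (6.67 to 12.6), Zfp667 with 17.0 CPM (5.59 to 7.50) and Zfp704 with 17.4 CPM (10.9 to 11.99). Over all members it was the distant library in 7 of 109 (6.42%), against 6.19% of genes tested. In zinc library 2, Zfp148 had 30.6 CPM (the others 26.8 to 27.1) and Zfp260 had 19.3 CPM (16.1 to 16.4). Zfp809 had 12.4 CPM in water library 3 (7.18 to 7.92), and Zfp638 had 13.2 CPM in water library 4 (11.5 to 11.7). The cause was not tested.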

How the results depend on the processing

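No member was called under any of the 17 refits, and the log2 fold changes of the 2 cases, of the 5 members of smallest p in each direction and of Zfp36 kept their sign in all of them. All of these but Zfp36 were picked by their difference in the same libraries. The refits reuse those libraries, so the kept signs are no independent support. Upper-quartile factors moved the median of members to 0.027, while the median of all genes went from 0.0062 to 0.055, and left 0 co-repressor genes lower at an unadjusted p under 0.05, and DESeq2 called 4 genes. With a length and GC offset, 7 members were higher and 8 lower at that threshold (backgrounds 5.30% and 3.22%). There 2 members were higher and 7 lower without overlap (backgrounds 2.53% and 3.18%), and 3 co-repressor genes were higher and 0 lower at the threshold. Without water libraries 3 and 4 together, 4 members were higher at that threshold (background 1.69%), and 1 co-repressor gene was higher and 0 lower. Without overlap 9 members were then higher and 16 lower (backgrounds 7.79% and 8.84%). A count minimum of 100 in place of 500 gave 21 higher members of 218 tested (9.63%), 6 lower (2.75%) and a median of 0.096. One of 1000 gave 8 higher members of 52 (15.4%) and 3 lower (5.77%). At 500 the shares were 10.1% and 5.50%, so the lower share at 100 and the higher share at 1000 were unlike those at 500. The background was the same at each limit, 6.42% higher and 3.78% lower. The lower share at 100 was thus below the background. A largest gap of 0.5 Mb gave 5 clusters and one of 2 Mb 10, in place of 8.

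Leaving out single libraries gave 8 to 17 higher members at the unadjusted threshold (backgrounds 3.81% to 10.97%) and 4 to 9 lower (backgrounds 1.54% to 6.98%). Without overlap, 5 to 11 members were higher (backgrounds 3.85% to 9.14%) and 6 to 12 lower (backgrounds 3.77% to 8.65%). The counts of 17 and 11 came without zinc library 4, where the backgrounds rose to 10.97% and 9.14%. The median of members ran from −0.057 to 0.019. Of the co-repressor genes 3 to 8 were higher and 0 to 2 lower at the threshold. Fewer libraries by themselves allow more groups without overlap. The labels do not say whether mice with the same replicate number were paired. Deviations of such libraries from their group means were hardly correlated (−0.0275 to 0.0266), which cannot settle it. With the replicate block, 10 members were higher (background 4.42%) and 6 lower (background 3.07%) at the unadjusted threshold. With the replicate block and the length and GC offset, 5 members were higher (background 3.84%) and 8 lower (background 3.05%). In that refit 2 members were higher and 7 lower without overlap (backgrounds 2.53% and 3.18%), and 4 co-repressor genes were higher at the threshold. The cause of these shifts was not tested. Depth limits the low members: at 500 counts over 8 libraries, counting error is part of the spread between mice.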
